A study of Mus musculus with 45 samples.

Results

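Mast cell protease and receptor genes were followed through the tissues of mice bearing 67NR, 4T07 or 4T1 mammary tumors. The set was fixed by name and holds 9 of the 55367 gene symbols counted: the proteases *Cpa3*, *Mcpt4*, *Cma1*, *Tpsb2* and *Tpsab1*, the receptors *Kit*, *Fcer1a* and *Ms4a2*, and the histamine-making enzyme *Hdc*. Each of the 9 passed the filter on low counts in every tissue. RNA was sequenced from 45 samples, 3 in each of 15 groups. These were subcutaneous polycaprolactone scaffolds, lungs and spleens from tumor-free control mice and from mice with each of the 3 lines, together with primary tumors of the 3 lines. The mice were female Balb/c, whose age the labels do not give, and each carried a scaffold placed under the skin of the upper back before inoculation. Tumor-bearing mice received cells of 1 line into a mammary fat pad, and tissues were taken on day 14. The lines derive from the same spontaneous mouse mammary tumor, with 67NR described as nonmetastatic, 4T07 as invasive but not metastatic and 4T1 as metastatic. Each line is a single transplanted line in a host of intact immunity, so a tumor library holds RNA of cancer cells and of host cells, and a level there is a share of both.

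Mast cells are resident granulocytes of connective tissue and mucosa that mature in the tissue under Kit ligand, the growth factor for the receptor tyrosine kinase *Kit*. Their granules store proteases bound to proteoglycan together with histamine, and crosslinking of IgE on the high-affinity receptor releases them. Basophils, their circulating relatives, also carry that receptor and make histamine, and in mice they are marked by the proteases *Mcpt8* and *Prss34*. Of the set, carboxypeptidase A3 (*Cpa3*), the chymases *Mcpt4* and *Cma1*, and the tryptases *Tpsb2* and *Tpsab1* are granule enzymes of connective tissue mast cells. *Cpa3* is also expressed in basophils and blood progenitors. *Fcer1a* and *Ms4a2* encode the alpha and beta chains of the IgE receptor. *Kit* is also used by blood progenitors, melanocytes and part of the lung endothelium, and *Hdc*, histidine decarboxylase, is also expressed by myeloid cells and basophils.

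Transcription factors of the GATA family act in mast cells and basophils, and the sequence before the start of each gene was read for their core motif GATAA on either strand (TTATC on the printed strand), which overlaps no other motif searched. RefSeq sequence of build GRCm38.p6 was given for 7 members, and *Tpsb2* and *Tpsab1* had no entry. In the 250 bases before the start the motif stood in 5 of the 7 members, against 25.5% of the 27025 genes with an entry. *Ms4a2* had 3 copies, *Cpa3*, *Mcpt4*, *Cma1* and *Fcer1a* had 1 each, and no match to these letters lay in this window of *Kit* or *Hdc*. The 200 bases before the start are shown for the protease genes that moved together in scaffolds and tumors. They are also shown for *Fcer1a*, a receptor chain gene that moved with *Cpa3* in lungs and spleens. *Ms4a2* moved with *Cpa3* there as well and is not shown. All 4 genes lie on the minus strand, the sequences read 5′ to 3′ toward the start, and the capitals mark the motif. A match is a description of the sequence and not evidence of a bound site.
Cpa3, chr3:20242182-20242381: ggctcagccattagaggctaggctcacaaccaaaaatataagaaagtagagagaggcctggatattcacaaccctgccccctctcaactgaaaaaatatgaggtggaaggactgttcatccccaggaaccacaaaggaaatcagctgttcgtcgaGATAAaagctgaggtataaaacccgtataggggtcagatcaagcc
Mcpt4, chr14:56062311-56062510: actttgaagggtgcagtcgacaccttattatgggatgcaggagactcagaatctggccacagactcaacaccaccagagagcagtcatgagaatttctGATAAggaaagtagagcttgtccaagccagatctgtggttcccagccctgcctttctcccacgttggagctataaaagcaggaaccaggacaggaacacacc
Cma1, chr14:55944676-55944875: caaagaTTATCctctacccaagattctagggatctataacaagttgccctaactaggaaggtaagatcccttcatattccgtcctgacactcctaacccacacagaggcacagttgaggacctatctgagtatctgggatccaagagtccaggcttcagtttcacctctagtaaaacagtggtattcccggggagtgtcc
Fcer1a, chr1:173227230-173227429: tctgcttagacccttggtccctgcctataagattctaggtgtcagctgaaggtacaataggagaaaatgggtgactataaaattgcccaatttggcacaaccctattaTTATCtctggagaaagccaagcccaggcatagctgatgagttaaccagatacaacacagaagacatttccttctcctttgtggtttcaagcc

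Library totals ran from 3491888 to 8175380 counts, with a median of 5149589, and 3 counts, the floor used here, stood at 0.367 to 0.859 CPM (counts per 1000000 counts of the library). Because the libraries count tags at the 3′ end, a level was compared between samples and not between genes. The 3 lungs of 4T07 mice stood apart from the other 9: they held genes of spleen and exocrine pancreas (*Tlx1* at 11.1 to 14.6 CPM and at most 1.72 in the others, *Pnlip* at 67.7 to 90.8 and at most 2.90) and less of the lung gene *Sftpc* (1798 to 3620.5, against 7939 to 13286). In spleens *Tlx1* stood at 11.9 to 16.7 CPM with 4T07, a range that these lungs overlapped, and at 11.0 to 55.8 in the others. The first 4T07 scaffold (*Tlx1* 4.65 CPM, *Pnlip* 20.9) and the first 4T07 tumor (*Tlx1* 4.42, *Pnlip* 8.63) carried the same genes at lower levels. Genes of other tissues were not confined to these libraries. *Pnlip* reached 84.5 CPM in 4T07 spleens and 630 in the other spleens, and *Sftpc* reached 127 in scaffolds and 111 in tumors not of 4T07 mice. The 3 4T07 spleens held more of the lung genes *Sftpc* (9.74 to 21.6 CPM) and *Scgb1a1* (20.0 to 51.4) than the other 9 spleens (at most 8.07 and 10.1). The first control spleen was high in the proteases and the second control scaffold was high in *Hdc*. *Tlx1*, *Pnlip*, *Sftpc* and *Scgb1a1* were picked from the lists of tissue markers after their values were seen.

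In tumor-free mice the 5 proteases were highest in the scaffold, *Kit* was highest in the lung, and *Hdc* was high in lung and scaffold and low in spleen. *Cpa3* stood at 23.9, 22.5 and 31.2 CPM in the 3 control scaffolds, at 8.93, 3.46 and 2.59 in the spleens and at 2.27, 2.89 and 2.10 in the lungs. No scaffold overlapped either organ. *Cma1* gave the same order, with 13.2, 13.5 and 20.6 CPM in scaffolds, 3.88, 3.23 and 3.45 in spleens and 2.79, 4.33 and 2.75 in lungs, the latter pair overlapping. *Tpsb2* stood at 37.8, 18.7 and 23.1 CPM in scaffolds, at 6.21, 0.923 and 2.59 in spleens and at 0.697, 0.721 and 1.29 in lungs. *Tpsab1*, the neighbouring tryptase gene, had 31.3, 15.7 and 21.3 CPM in scaffolds and only 0, 1 and 2 counts in the lungs. *Mcpt4* was at 14.9, 9.66 and 13.5 CPM in scaffolds, and each control lung held exactly 3 counts.

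All 5 proteases passed the thresholds between scaffold and lung (adjusted p-value under 0.05 and more than a 2-fold change, edgeR quasi-likelihood test), as did 24.1% of all 27656 genes tested. The log2 difference of scaffold minus lung was 3.66 ± 0.33 (SE) for *Cpa3* (adjusted p-value 1.05e-12), 2.51 ± 0.28 for *Cma1* (3.21e-10) and 5.09 ± 0.46 for *Tpsb2* (1.35e-12). For the genes whose lungs held at most 3 counts each, the ratio of pooled CPM was 24.3 for *Mcpt4* (95% counting interval 12.5 to 53.8) and 128 for *Tpsab1* (43.4 to 623). These intervals cover counting error only. Scaffold also exceeded spleen in all 5 proteases, by 1.58 (*Mcpt4*) to 3.19 (*Tpsab1* and *Tpsb2*) on the log2 scale, where 12.8% of all genes were higher. Without the first control spleen these differences were larger, at 2.72 for *Mcpt4*, 3.32 for *Cpa3* (2.54 with it), 4.12 for *Tpsb2* and 4.56 for *Tpsab1*. Lung was below spleen in 4 of the 5, against 29.8% of genes called in either direction. However, *Cpa3* (-1.12) and *Tpsb2* (-1.89) lost that call without the first control spleen (-0.34 and -0.96, adjusted p-values 0.533 and 0.255). The *Cpa3* call also ended without the third control lung (-1.01, 0.0557). In bulk tissue, fewer cells of a type and less RNA per cell cannot be told apart.

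*Kit* was the exception to the scaffold order. The receptor stood at 74.8, 90.7 and 111 CPM in control lungs, at 13.6, 13.2 and 21.8 in spleens and at 11.1, 7.60 and 9.29 in scaffolds. Lung exceeded spleen by 2.46 ± 0.23 (adjusted p-value 1.67e-12), and scaffold lay 3.05 below lung on the log2 scale (-3.05 ± 0.23, 8.28e-15). The endothelial genes *Pecam1* and *Cdh5* were likewise high in control lungs, with 6 capillary endothelium genes summing to 2774 to 2876 CPM there, 265 to 331 in control scaffolds and 419 to 568 in control spleens, and their part in the *Kit* result was not tested. The IgE receptor chains were scarce in all control tissues. *Fcer1a* had 2, 1 and 1 counts in control lungs, and the ratio of scaffold to lung was 4.26 (1.39 to 17.4, adjusted p-value 0.0229), a call that ended when any of 3 libraries was left out (the third control scaffold or the second or the third control lung). *Ms4a2* was called in none of the 3 pairs of control tissues.

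Histidine decarboxylase was uneven in the scaffolds of tumor-free mice. *Hdc* stood at 58.1, 297 and 40.3 CPM there, at 178, 175 and 199 in the lungs and at 13.2, 21.0 and 17.5 in the spleens. Both scaffold and lung exceeded spleen, by 3.14 ± 0.38 and 3.38 ± 0.38 on the log2 scale (adjusted p-values 4.23e-09 and 6.28e-10). Scaffold and lung did not pass (-0.24 ± 0.34, 0.648). Without the second control scaffold the scaffold was lower than the lung (-1.62, 1.25e-06), and its difference from spleen shrank to 1.75 (2.9e-07).

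**Figure D1:**
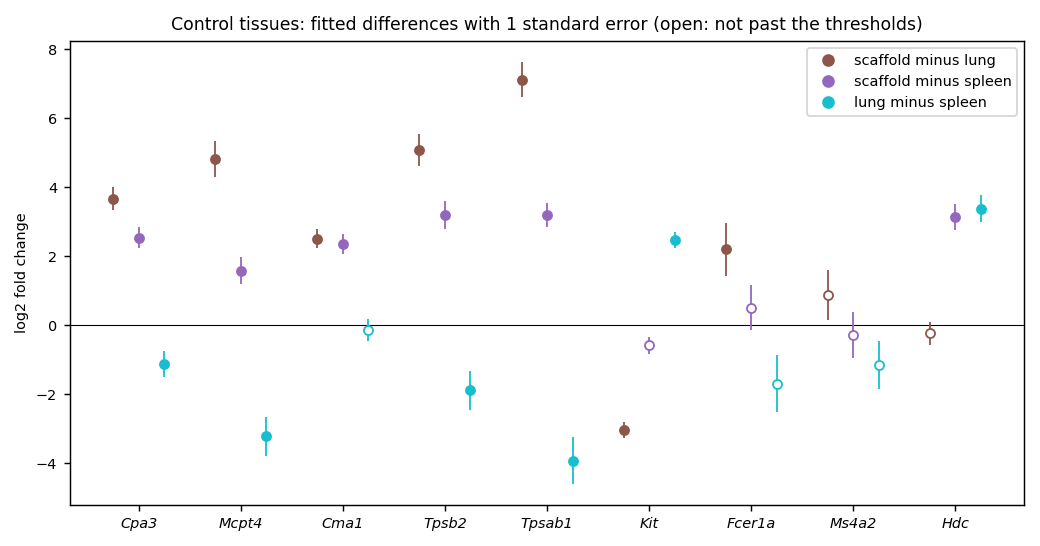
Fitted log2 fold changes between the control tissues for the 9 genes (vertical axis), with bars of 1 standard error and filled points for differences past the thresholds. The 5 proteases lie above 0 in scaffold minus lung, from 2.51 for Cma1 to 7.12 for Tpsab1, whereas Kit lies at -3.05. The values of Mcpt4, Tpsab1 and Fcer1a against lung rest on lungs of at most 3 counts each.

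In scaffolds the granule proteases fell in 4T07 mice, and none was called in 67NR or 4T1 mice. *Cpa3* stood at 15.2, 10.6 and 10.4 CPM in the 4T07 scaffolds, against 23.9, 22.5 and 31.2 in controls, 23.3, 27.4 and 28.5 with 67NR and 18.8, 21.1 and 22.4 with 4T1. Every 4T07 scaffold was below every scaffold of the other 3 groups. The chymase *Cma1* was at 7.58, 4.72 and 5.90 CPM with 4T07, against 13.2, 13.5 and 20.6 in controls, 15.9, 16.0 and 14.1 with 67NR and 15.8, 8.95 and 13.5 with 4T1, again without overlap. *Mcpt4* was at 5.38, 4.13 and 6.83 CPM with 4T07, against 14.9, 9.66 and 13.5 in controls, 11.8, 8.66 and 10.8 with 67NR and 10.4, 7.83 and 9.16 with 4T1. *Tpsab1* was at 9.17, 10.4 and 10.3 CPM with 4T07, and the other 9 scaffolds ranged from 15.7 to 31.3. The tryptase *Tpsb2* overlapped, since its 4T07 scaffolds held 11.9, 15.9 and 20.8 CPM, and 1 control scaffold held 18.7.

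Against control scaffolds 4 of the 5 proteases were lower with 4T07 past an adjusted p-value of 0.10 and a 2-fold change, where 3.59% of the 22156 genes tested were lower by the same rule and the groups did not overlap in that direction in 11.2%. The log2 differences were -1.23 ± 0.19 for *Cpa3* (adjusted p-value 0.00114), -1.50 ± 0.26 for *Cma1* (0.00185), -1.34 ± 0.25 for *Tpsab1* (0.00308) and -1.35 ± 0.26 for *Mcpt4* (0.00331), and *Tpsb2* came to -0.86 ± 0.30 (0.0763) with less than a 2-fold change. The median over the 5 was -1.34, beside 0.04 over all genes. Against 67NR scaffolds, where 3.03% of genes were lower, *Cpa3* (-1.19), *Cma1* (-1.39), *Tpsab1* (-1.24) and *Tpsb2* (-1.07) were called, and *Mcpt4* (-0.99, adjusted p-value 0.0238) missed the 2-fold limit narrowly. The *Tpsb2* call ended without the first 67NR scaffold (-0.82, 0.156) or the first 4T07 scaffold (-0.87, 0.119). Between 4T1 and 4T07 scaffolds only *Cma1* was called, higher with 4T1 by 1.10 ± 0.26 (adjusted p-value 0.0656), against 0.636% of genes, and this call ended when any of 4 libraries was left out (the second and the third 4T07 scaffolds and the first and the third 4T1 scaffolds, with 0.128 to 0.172).

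In 4T1 and 67NR scaffolds no member differed from control at these thresholds. With edgeR, 4T1 against control gave 2 members at an unadjusted p-value under 0.05, *Cpa3* (-0.42 ± 0.19) and *Mcpt4* (-0.58 ± 0.25), and 67NR against control gave 0, while DESeq2 called 0 in both. Only 5 of 22156 genes (0.0226%) were called in all for 4T1 and 0 (0%) for 67NR. Without the first 4T07 scaffold, which carried spleen and pancreas genes, the 4 calls of 4T07 against control stood, with *Cpa3* at -1.42 (adjusted p-value 0.00102), *Cma1* at -1.68 (0.00252), *Mcpt4* at -1.32 (0.0112) and *Tpsab1* at -1.26 (0.0119). Adipocyte genes moved alongside, 4 of 7 being lower in 4T07 scaffolds, with sums of 434 to 599 CPM against 847 to 1118 in controls. In the same scaffolds 7 of 7 immature neutrophil genes were higher (153 to 1330.2 CPM against 4.41 to 11.6). So were 7 of 7 erythroid progenitor genes (28.6 to 378 against 6.93 to 12.4) and 2 of 5 eosinophil genes (55.9 to 358 against 17.0 to 18.5). The share of all genes higher in these scaffolds is not given here. The part of any of these lists in the protease result was not tested.

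The receptors and *Hdc* gave no call against control in any scaffold. *Kit*, on the same mast cells as the proteases but also on other cells, stood at 10.4, 10.6 and 15.8 CPM in 4T07 scaffolds and at 11.1, 7.60 and 9.29 in controls, a difference of 0.26 ± 0.24 (adjusted p-value 0.569). *Fcer1a* and *Ms4a2* were near the floor, at 0 to 13 and 0 to 14 counts per scaffold. With standard errors of 0.67 to 0.78 on the log2 scale, a 2-fold change from control was within 2 such errors. *Hdc* stood at 192, 165 and 196 CPM with 67NR, at 90.1, 91.6 and 137 with 4T07 and at 135, 248 and 139 with 4T1. The control scaffolds, at 40.3 to 297, overlapped each of these, while 4T07 lay below 67NR without a call (-0.86 ± 0.49, adjusted p-value 0.310). The second control scaffold decided the comparisons with control. Without it *Hdc* was higher with 67NR by 1.80 (adjusted p-value 0.0814) and with 4T1 by 1.67 (0.0342), and 4T07 gave 0.94 (0.0515), under a 2-fold change. The basophil genes *Mcpt8* and *Prss34* were at 0 in all 3 control scaffolds and at 2.49 to 14.7 and 0.621 to 12.7 CPM with 4T07.

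**Figure D2:**
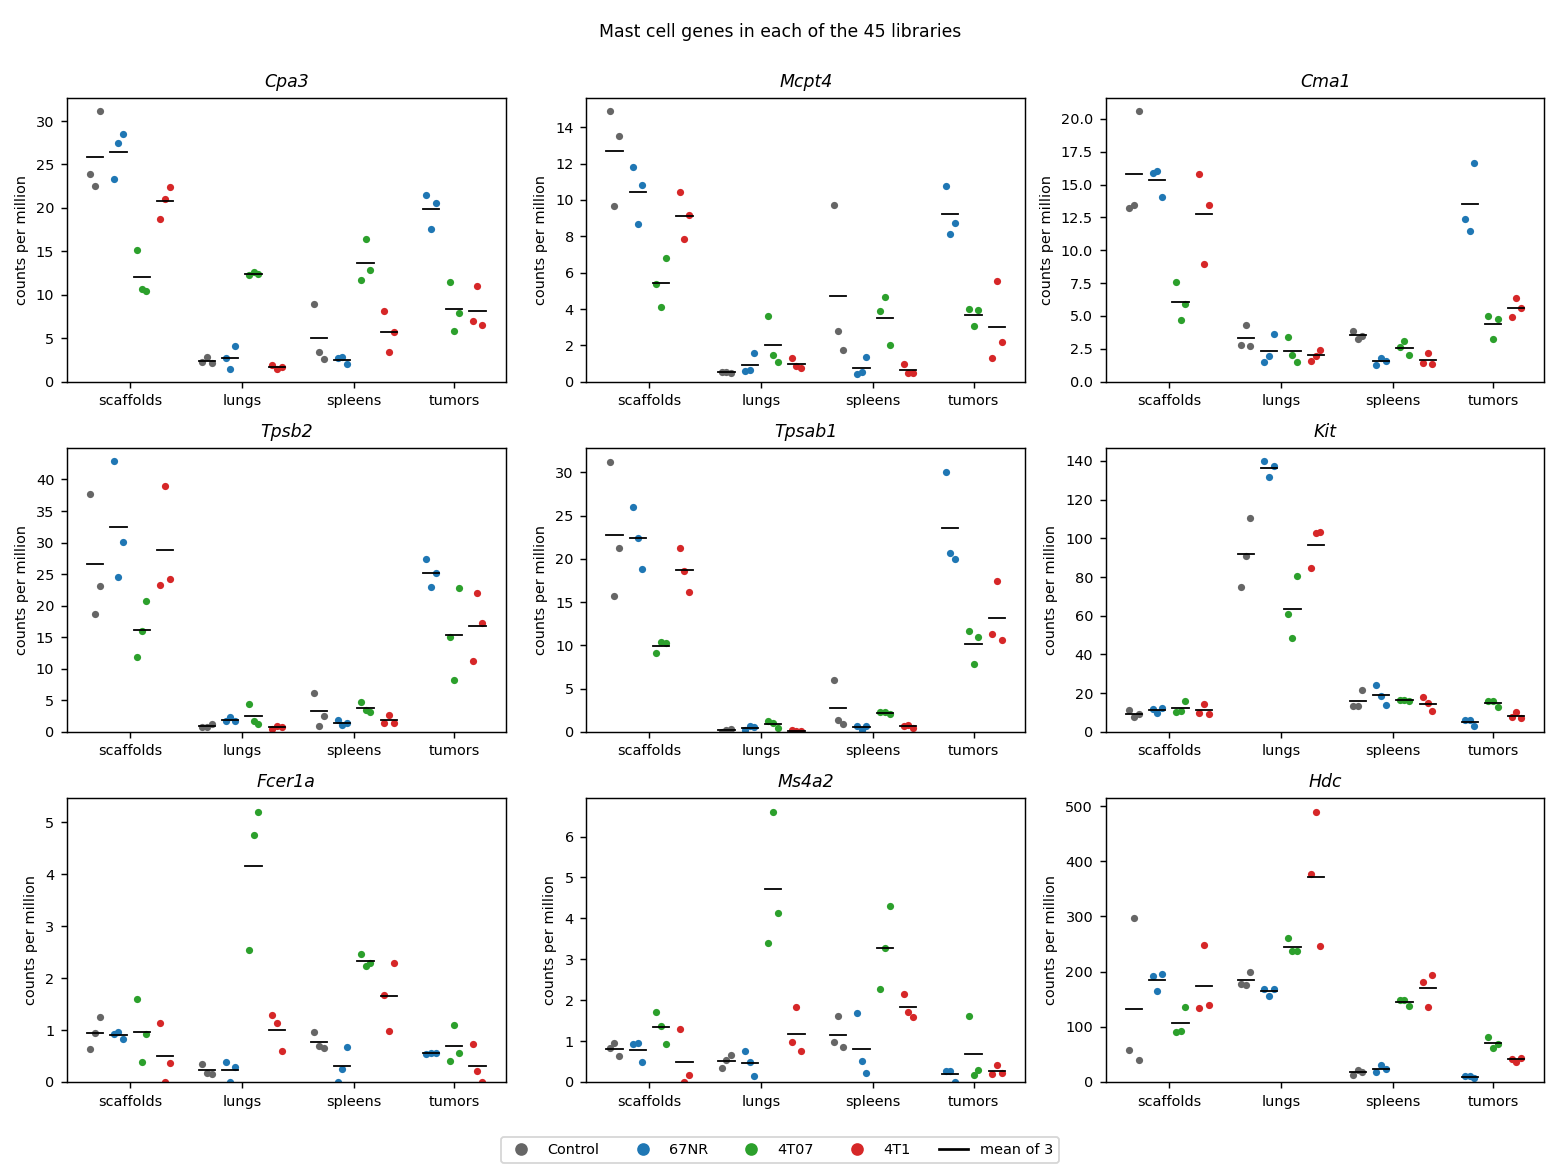
Levels of the 9 genes in each of the 45 libraries in CPM (vertical axes, each gene on its own linear scale), grouped by tissue and coloured by tumor line, with bars at the mean of 3. The green points of the 4T07 scaffolds lie below the other scaffolds for Cpa3, Mcpt4, Cma1 and Tpsab1, and those of the 4T07 lungs lie above the other lungs for Cpa3, Fcer1a and Ms4a2.

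In lungs the IgE receptor chains and *Cpa3* were higher in 4T07 mice than in the other 3 groups. *Cpa3* stood at 12.3, 12.6 and 12.4 CPM in the 4T07 lungs, against 2.27, 2.89 and 2.10 in controls, 2.68, 1.46 and 4.05 with 67NR and 1.93, 1.41 and 1.65 with 4T1. The 3 libraries nearly coincided and none of the other 9 reached them. *Fcer1a* had 12, 23 and 24 counts in 4T07 lungs, against 2, 1 and 1 in controls, 2, 0 and 2 with 67NR and 8, 8 and 4 with 4T1. *Ms4a2* had 16, 32 and 19 counts with 4T07, against 2, 3 and 4 in controls, 4, 3 and 1 with 67NR and 6, 13 and 5 with 4T1, likewise without overlap. The other proteases were low, and *Mcpt4* was at 3.60, 1.45 and 1.08 CPM with 4T07, *Tpsb2* at 4.45, 1.65 and 1.30, and *Tpsab1* had 6, 5 and 2 counts. *Cma1* did not follow, with 3.39, 2.06 and 1.52 CPM in 4T07 lungs and 2.79, 4.33 and 2.75 in controls.

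Against control lungs 6 members were higher with 4T07, where 15.3% of the 21937 genes tested were higher by the same rule and the 2 groups did not overlap in that direction in 25.0%. *Cpa3* rose by 2.42 ± 0.29 (log2, adjusted p-value 9.44e-07) and *Ms4a2* by 3.21 ± 0.50 (2.08e-05). For the genes with at most 3 counts in each control lung, the pooled ratio was 18.2 for *Fcer1a* (95% counting interval 6.73 to 68.9, adjusted p-value 7.62e-06), 3.97 for *Mcpt4* (1.83 to 9.53, 0.00832) and 5.34 for *Tpsab1* (1.47 to 29.2, 0.0244). *Tpsb2* rose by 1.48 ± 0.50 (0.0212), and *Cma1* gave -0.43 ± 0.39 (0.402). Without the first 4T07 lung, *Mcpt4* (1.37, 0.102) and *Tpsb2* (0.79, 0.257) were no longer called and the other 4 were. Against 67NR lungs, where 14.4% of genes were higher, *Cpa3* (2.33), *Ms4a2* (3.52), *Fcer1a* (ratio 19.0, 7.05 to 72.1) and *Mcpt4* (1.22, adjusted p-value 0.0624, and 1.84 without the third 67NR lung) were higher, and *Mcpt4* lost its call without the first 4T07 lung or the first or second 67NR lung (0.150 to 0.461) and with DESeq2 (0.116).

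Among the lungs, those of 4T07 mice were the ones that held genes of spleen and pancreas, and these genes moved with the members that rose. *Mcpt8* and *Prss34*, the basophil proteases, were at 46.4 to 72.9 and 47.9 to 64.2 CPM there, against 0.180 to 0.523 and 0 in control lungs. In all, 3 of the 6 basophil genes were higher, with sums of 164 to 179.6 CPM against 48.5 to 61.8. *Gata2*, also of that list, did not rise, at 26.2 to 50.1 CPM in 4T07 lungs and 41.1 to 92.1 in the other lungs. The sums therefore do not follow *Mcpt8* and *Prss34* alone. Of 7 erythroid progenitor genes 7 were higher (sums of 969.9 to 1409 CPM against 8.42 to 22.7), as were 4 of 4 exocrine pancreas genes tested (127 to 166 against 0.486 to 0.721) and 3 of 4 spleen genes, while 3 of 4 lung genes were lower (2995 to 5943 against 21052 to 23761). All 3 libraries of the group carried these genes, so that a lung response to 4T07 and RNA of other tissues in these libraries cannot be told apart.

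**Figure D3:**
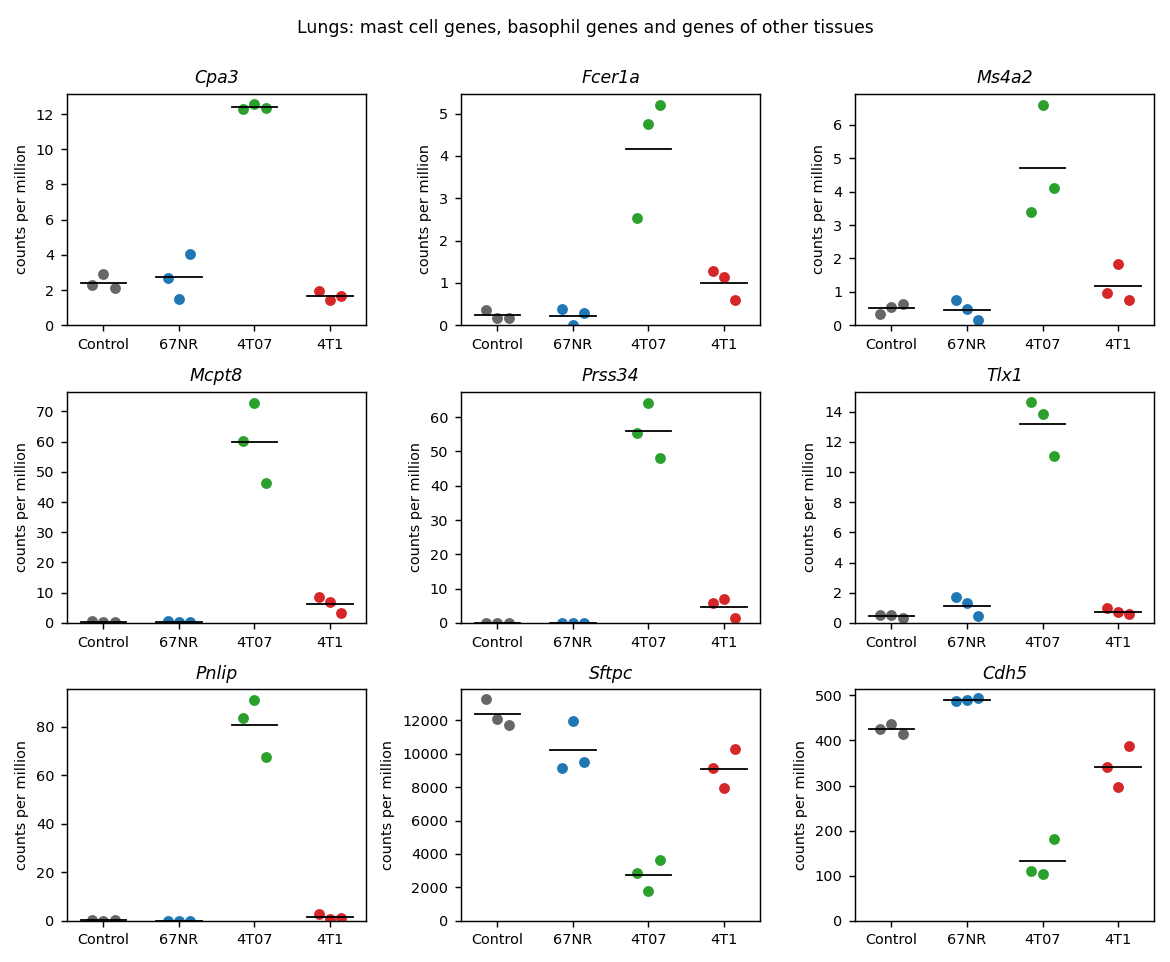
Levels in CPM (vertical axes, linear) of 3 mast cell genes, the basophil genes Mcpt8 and Prss34, the spleen gene Tlx1, the pancreas gene Pnlip, the alveolar gene Sftpc and the endothelial gene Cdh5 in the 12 lungs, with bars at the mean of 3. Cpa3 at 12.3 to 12.6, Mcpt8 at 46.4 to 72.9 and Pnlip at 67.7 to 90.8 CPM stand out in the same 3 libraries, in which Sftpc and Cdh5 are lowest.

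In 4T1 lungs *Hdc* and *Fcer1a* were the 2 members called against control. *Hdc* stood at 377, 490.0 and 247 CPM, against 178, 175 and 199 in controls and 168, 156 and 169 with 67NR, and each 4T1 lung lay above all of these. So did each 4T07 lung, at 260, 237 and 236 CPM. These overlapped the 4T1 lungs, and *Hdc* was not called in 4T07 lungs against control or 67NR. In 4T1 lungs the difference was called against both. With 4T1, *Hdc* was higher than control by 1.03 ± 0.17 (adjusted p-value 0.000615) and than 67NR by 1.29 ± 0.17 (3.98e-05), where 3.56% and 3.23% of genes were higher. In the same 4T1 lungs 7 of 7 immature neutrophil genes were higher than in controls, with sums of 335 to 1158 CPM against 10.3 to 16.5 in controls and 15.8 to 31.0 with 67NR, and their part in the *Hdc* result was not tested. The difference of *Hdc* from control fell under a 2-fold change without the second 4T1 lung (0.76, 0.00876) or the second control lung (0.98). *Fcer1a* gave a ratio of 4.37 to control (1.46 to 17.6, adjusted p-value 0.0850), a call that ended without any of 6 of the 12 lungs (0.102 to 0.256), namely each control lung, the third 67NR lung and the first and second 4T1 lungs. DESeq2 did not call it either (0.116), whereas against 67NR the ratio was 4.58 (1.53 to 18.4, adjusted p-value 0.0594), lost without any of 4 libraries (the second and the third 67NR and the first and second 4T1 lungs, 0.157 to 0.184). The proteases were not called in 4T1 lungs, with *Cpa3* at -0.52 ± 0.36, and 6 members were lower in 4T1 than in 4T07 lungs (11.9% of genes), *Cpa3* by the largest margin of the fitted values (-2.94 ± 0.30, 1.67e-07). Of these 6, *Tpsb2* (-1.74) was no longer called without the first 4T07 lung (-1.05, 0.143), and *Mcpt4* (-1.13, 0.0923) without the first 4T07 lung or the second or the third 4T1 lung (0.183 to 0.568), with DESeq2 (0.169) or without the filter on low counts (0.114). *Mcpt8* and *Prss34* stood at 3.15 to 8.69 and 1.35 to 6.92 CPM in 4T1 lungs.

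*Kit* went its own way in the lung. It stood at 139.8, 132 and 137 CPM with 67NR, at 84.5, 103 and 103 with 4T1, at 74.8, 90.7 and 111 in controls and at 60.8, 48.5 and 80.5 with 4T07. The 67NR lungs lay above all others and the 4T07 lungs overlapped control in 1 library. None of these differences reached 2-fold, as 67NR against control came to 0.46 ± 0.16 (adjusted p-value 0.0896, 4.25% of genes called), 4T07 against control to -0.48 ± 0.17 (0.0266) and 4T07 against 67NR to -0.94 ± 0.17 (0.000116). Capillary endothelium genes took a like order, with sums of 3110.3 to 3291 CPM with 67NR, 2774 to 2876 in controls, 2727 to 2885 with 4T1 and 931 to 1507 with 4T07, among them *Cdh5* at 103 to 182 CPM in 4T07 lungs and 296 to 494 in the others. The progenitor gene *Cd34* was at 142 to 234 and 344 to 443 CPM in the same libraries, *Flt3* at 5.93 to 8.46 and 0.989 to 5.23, *Epor* at 23.2 to 35.1 and 1.22 to 5.75, and *Gata1* at 38.8 to 74.9 and 0.162 to 3.86, and the part of any of these in the *Kit* levels was not tested.

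In spleens histidine decarboxylase rose with 4T07 and with 4T1. *Hdc* stood at 149, 149 and 138 CPM with 4T07 and at 180.3, 135 and 194 with 4T1, against 13.2, 21.0 and 17.5 in controls and 17.2, 30.7 and 22.6 with 67NR. The 2 pairs of groups did not overlap. The log2 differences from control were 3.25 ± 0.24 with 4T07 (adjusted p-value 1.13e-07) and 3.57 ± 0.24 with 4T1 (7.9e-08), where 8.26% of the 21128 genes tested were higher and 19.9% were called in either direction, and 67NR gave 0.35 ± 0.23 (0.481). Both held under every alternative run. Alongside, 7 of 7 immature neutrophil genes were higher with 4T07 (sums of 6581 to 8514 CPM) and with 4T1 (2298 to 7198) than in controls (56.9 to 127), and *Mcpt8* was at 30.7 to 62.5, 7.10 to 15.8 and 1.36 to 3.02 CPM in the same order. Their part in the *Hdc* levels was not tested.

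The IgE receptor chains and *Cpa3* were also higher in 4T07 spleens. *Cpa3* stood at 11.7, 16.4 and 12.9 CPM with 4T07, against 8.93, 3.46 and 2.59 in controls, 2.72, 2.81 and 2.02 with 67NR and 8.15, 3.43 and 5.71 with 4T1, without overlap with any. *Fcer1a* had 12, 13 and 8 counts with 4T07, 7, 4 and 10 with 4T1, 5, 3 and 3 in controls and 0, 1 and 3 with 67NR. *Ms4a2* had 11, 19 and 15 counts with 4T07, 9, 7 and 7 with 4T1, 5, 7 and 4 in controls and 8, 2 and 1 with 67NR. Against control, 4T07 raised *Cpa3* by 1.60 ± 0.38 (adjusted p-value 0.00554), *Fcer1a* by 1.72 ± 0.54 (0.0288) and *Ms4a2* by 1.66 ± 0.51 (0.0246). Without the first control spleen *Cpa3* came to 2.37 (0.000301), and *Tpsb2* was called as well (1.27, 0.0668). The 4T1 values were smaller and not called, at 0.44 ± 0.41, 1.32 ± 0.58 and 0.92 ± 0.55, although *Cpa3* was called with 4T1 without the first control spleen (1.20, 0.0325). Basophil genes summed to 101 to 146 CPM in 4T07 spleens, 33.1 to 64.9 with 4T1, 20.0 to 23.2 with 67NR and 14.2 to 20.1 in controls. Among them *Prss34* was at 55.6 to 70.7 CPM with 4T07 and 0.449 to 37.2 in the other spleens. The part of basophils in the levels of *Cpa3*, *Fcer1a* and *Ms4a2* was not tested. Nor was that of the lung RNA in 4T07 spleens, whose lung genes are given above. *Kit* ranged from 10.7 to 24.3 CPM over the 12 spleens and gave no call.

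The remaining proteases were low in the spleen and rested on few libraries. *Mcpt4* stood at 9.71, 2.77 and 1.72 CPM in control spleens and at 3.91, 4.66 and 2.00 with 4T07, and it had 2, 2 and 6 counts with 67NR and 4, 2 and 2 with 4T1. *Tpsab1* was at 6.02, 1.38 and 0.862 CPM in controls and at 2.26, 2.24 and 2.00 with 4T07, and it had 3, 1 and 3 counts with 67NR and 3, 3 and 2 with 4T1. In both genes the first control spleen was far above the other two. *Mcpt4* was lower than control with 67NR (-2.72 ± 0.66, adjusted p-value 0.0364) and with 4T1 (-2.63 ± 0.70, 0.00993). The ratio of control to tumor-bearing spleens for *Tpsab1* was 5.45 with 67NR (2.42 to 14.4, 0.0658) and 4.58 with 4T1 (2.12 to 11.3, 0.0538), and *Cma1* was lower with 67NR (-1.29 ± 0.37, 0.0669). In 67NR spleens these 3 of 9 members were lower, beside 0.970% of all genes. Without the first control spleen the 67NR differences shrank to -1.60 for *Mcpt4*, -1.11 for *Tpsab1* and -1.20 for *Cma1* (0.226, 0.482 and 0.195) and the 4T1 difference of *Tpsab1* to -0.53 (0.581), none of them called, while that of *Mcpt4* with 4T1 stood at -1.52 (0.0872). Without the third 67NR spleen *Mcpt4* came to -3.40 with 67NR. Leaving out other spleens also ended the 67NR calls (the second control spleen and the first or second 67NR spleen in all 3, and the third 67NR spleen in *Tpsab1* and *Cma1*) and the 4T1 call of *Tpsab1* (each 4T1 spleen).

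Between tumor lines, 8 of the 9 genes were higher in 4T07 than in 67NR spleens, where 6.50% of genes were higher, the exception being *Kit* (0.06 ± 0.25). *Cpa3* led the proteases (2.71 ± 0.42, adjusted p-value 0.000321), *Hdc* gave 2.90 ± 0.23 (2.88e-07), and the 4T07 to 67NR ratio was 7.67 for *Fcer1a* (2.73 to 29.8) and 4.12 for *Tpsab1* (1.78 to 11.1). *Cma1* (1.05 ± 0.38) lost this call without any of 5 spleens (each of the 67NR spleens and the first and second 4T07 spleens), *Tpsb2* (1.65 ± 0.54) without any of 3 (the second and the third 67NR and the first 4T07 spleens), and *Tpsab1* without the second 67NR spleen (1.96, 0.124). In 4T1 against 67NR spleens (10.3% of genes higher), *Cpa3* (1.54 ± 0.46, 0.0180), *Fcer1a* (ratio 5.47, 1.84 to 21.9, 0.00778), *Ms4a2* (1.45 ± 0.59, 0.0746) and *Hdc* (3.22 ± 0.23, 1.1e-07) were higher. Of these, *Cpa3* was no longer called without the first 4T1 spleen (1.22, 0.102), and *Ms4a2* without any of 5 (the second and the third 67NR and all 4T1 spleens, 0.106 to 0.239), and without the first 67NR spleen *Ms4a2* came to 2.60. Between 4T1 and 4T07 spleens, with 1.50% of genes lower, only *Mcpt4* passed (-2.39 ± 0.72, 0.0962), and this ended without any of 10 of the 12 spleens, the first and the third control spleens being the exceptions.

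**Figure D4:**
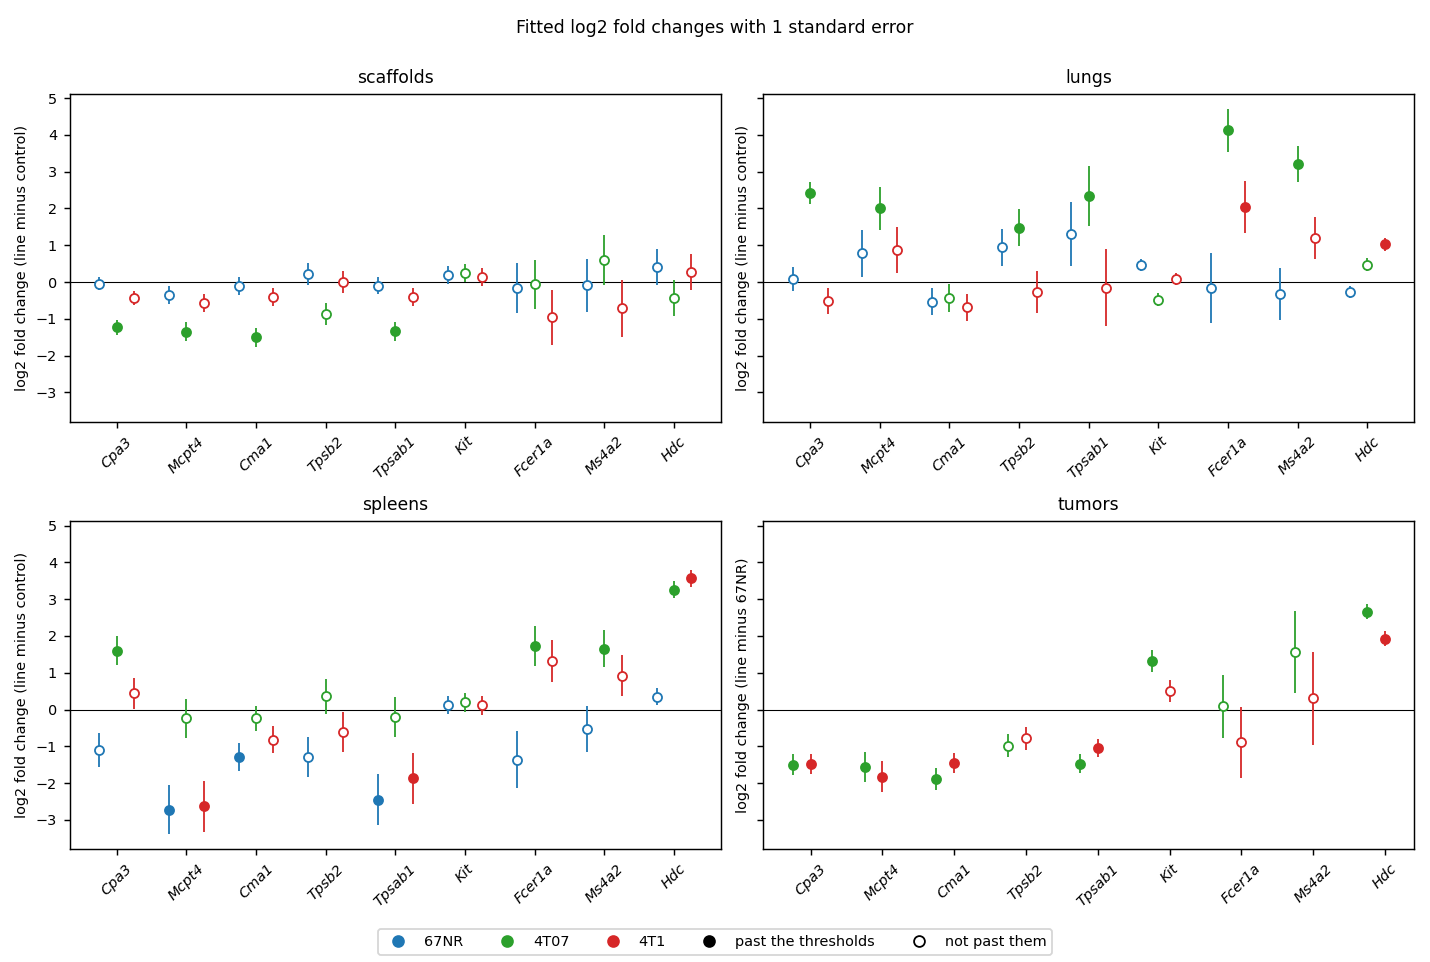
Fitted log2 fold changes of the 9 genes in scaffolds, lungs and spleens (each line minus control) and in tumors (each line minus 67NR), with bars of 1 standard error and filled points for differences past the thresholds. In 4T07 mice (green) Cpa3 lies at -1.23 in scaffolds, 2.42 in lungs and 1.60 in spleens. In tumors Cpa3, Mcpt4, Cma1 and Tpsab1 lie below 0 in both lines and Hdc above.

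Primary tumors have no tumor-free counterpart and were compared with one another. The proteases were lower and *Hdc* was higher in 4T07 and 4T1 tumors than in 67NR tumors. *Cpa3* stood at 21.5, 17.6 and 20.6 CPM with 67NR, at 11.4, 5.81 and 7.90 with 4T07 and at 6.95, 11.1 and 6.48 with 4T1. *Cma1* was at 12.4, 11.5 and 16.7 CPM with 67NR, at 5.02, 3.27 and 4.80 with 4T07 and at 4.94, 6.35 and 5.61 with 4T1. *Mcpt4* was at 10.8, 8.11 and 8.75 CPM with 67NR, at 4.01, 3.08 and 3.95 with 4T07 and at 1.28, 5.53 and 2.16 with 4T1, and *Tpsab1* at 30.1, 20.7 and 20.0, at 11.6, 7.80 and 11.0 and at 11.3, 17.4 and 10.6. In these 4 genes no 67NR tumor overlapped a tumor of the other lines, as in 16.3% of all genes lower with 4T07 and 15.5% lower with 4T1. *Tpsb2* was at 27.4, 22.9 and 25.1 CPM with 67NR, at 15.1, 8.16 and 22.9 with 4T07 and at 11.2, 21.9 and 17.3 with 4T1, the highest 4T07 tumor and the lowest 67NR tumor both rounding to 22.9. *Hdc* took the opposite order, with 10.8, 10.1 and 7.34 CPM in 67NR tumors, 81.1, 62.2 and 68.6 with 4T07 and 42.1, 36.5 and 44.2 with 4T1, and no group overlapped another. Immature neutrophil genes took the same order, with sums of 3.11 to 15.1 CPM with 67NR, 109 to 1044 with 4T07 and 25.7 to 73.3 with 4T1, as did basophil genes (9.14 to 10.4, 32.3 to 52.0 and 13.7 to 16.2), and their part in the *Hdc* levels was not tested.

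With 4T07, 28.9% of the 20508 genes tested passed an adjusted p-value of 0.05 and a 2-fold change against 67NR tumors, in either direction. By this rule 4 of the 5 proteases were lower. These were *Cma1* (-1.88 ± 0.29, adjusted p-value 0.000111), *Mcpt4* (-1.57 ± 0.41, 0.00642), *Cpa3* (-1.49 ± 0.28, 0.000655) and *Tpsab1* (-1.47 ± 0.26, 0.000405), and *Tpsb2* (-0.98 ± 0.32, 0.0231) was just under 2-fold. The same 4 genes were lower with 4T1, with 20.7% of genes called in either direction. *Mcpt4* came to -1.82 ± 0.42 (0.0034), *Cpa3* to -1.48 ± 0.28 (0.000865), *Cma1* to -1.46 ± 0.28 (0.000927) and *Tpsab1* to -1.04 ± 0.26 (0.00551). Without the second 4T1 tumor *Mcpt4* came to -2.60 with 4T1. The *Tpsab1* difference with 4T1 fell under 2-fold without the first 67NR tumor (-0.87) or the third 4T1 tumor (-0.96). The median over the 5 was -1.49 with 4T07 and -1.46 with 4T1, beside 0.16 and 0.09 over all genes. *Hdc* was higher by 2.66 ± 0.21 with 4T07 (1.87e-07) and by 1.92 ± 0.21 with 4T1 (4.56e-06). Between 4T1 and 4T07 tumors no member was called (8.61% of genes), with *Hdc* (-0.73 ± 0.18, 0.0126) under 2-fold and *Kit* (-0.83 ± 0.27, 0.0532) past neither limit. There edgeR gave 2 members at an unadjusted p-value under 0.05 and DESeq2 called 0.

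*Kit* was higher in 4T07 tumors. It stood at 16.1, 16.1 and 13.0 CPM there, against 6.18, 5.87 and 3.11 in 67NR tumors and 7.50, 10.2 and 6.91 in 4T1 tumors, and 4T07 overlapped neither. The difference from 67NR was 1.32 ± 0.29 (adjusted p-value 0.00223) with 4T07 and 0.50 ± 0.30 (0.234) with 4T1. Without the first 4T07 tumor, which held spleen and pancreas genes, all 6 calls of 4T07 against 67NR stood, with *Kit* at 1.23 and *Hdc* at 2.50. Of the genes set beside *Kit*, *Cd34* was at 124 to 145 CPM in 4T07 tumors and 81.6 to 293 in the other 6, *Flt3* at 4.52 to 10.2 and 1.34 to 6.77, *Epor* at 1.13 to 13.2 and 0.183 to 2.26, *Gata1* at 1.98 to 14.0 and 0.731 to 2.25, *Pecam1* at 49.2 to 92.3 and 36.7 to 50.2, and *Cdh5* at 26.7 to 46.2 and 27.4 to 52.0. Their part in the result was not tested. *Fcer1a* and *Ms4a2* were at 0 to 6 and 0 to 8 counts per tumor and gave no call.

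The scaffold and the tumor of the same line were then set side by side. For 4T07 no member differed (17.0% of genes called), with 3 at an unadjusted p-value under 0.05 and 0 called by DESeq2. Without the first 4T07 tumor, however, *Cpa3* (-1.05, adjusted p-value 0.0190) and *Ms4a2* (-2.68) were lower in tumors. The *Ms4a2* value rests on 1 count in each remaining 4T07 tumor, against 14, 7 and 6 counts in the 4T07 scaffolds, and its size is no bound. For 67NR the proteases stood close, *Tpsab1* at 0.08 ± 0.29 and *Cpa3* at -0.40 ± 0.27, and *Hdc* (-4.28 ± 0.42, 1.34e-11) and *Kit* (-1.14 ± 0.28, 0.000875) were lower in the tumor, against 15.7% of genes lower. The *Kit* difference fell under 2-fold without the third 67NR tumor (-0.89). For 4T1 the tumor was lower in *Cpa3* (-1.49 ± 0.29, 5.49e-05), *Mcpt4* (-1.77 ± 0.42, 0.000726), *Cma1* (-1.33 ± 0.27, 8.23e-05) and *Hdc* (-2.21 ± 0.36, 2.4e-06), against 10.7% of genes lower, and without the second 4T1 tumor *Mcpt4* came to -2.55.

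The response of a gene to a line was also tested between tissues, as the difference of the 2 differences from control in 1 fit over all 45 samples. With 4T07, *Cpa3* differed between scaffolds and lungs by -3.54 ± 0.44 (adjusted p-value 1.42e-07) and between scaffolds and spleens by -2.83 ± 0.42 (8.19e-06), where 18.7% and 15.1% of the 27656 genes passed at 0.10. *Mcpt4*, *Tpsb2*, *Tpsab1*, *Fcer1a* and *Ms4a2* also differed between scaffolds and lungs in the same direction. *Hdc* differed between scaffolds and spleens by -3.70 ± 0.51 with 4T07 (2e-06) and by -3.25 ± 0.50 with 4T1 (2.73e-05, 14.2% of genes), and between lungs and spleens by -2.89 ± 0.50 and -2.54 ± 0.50 (3.27e-05 and 0.000586, 20.6% and 15.5%), each being larger in the spleen. With 67NR no member passed (0.00723%, 0% and 0.0470% of genes for scaffolds against lungs, scaffolds against spleens and lungs against spleens), where 0, 5 and 4 members had an unadjusted p-value under 0.05 and DESeq2 called 0, 0 and 1. With 4T1 none passed between scaffolds and lungs (0.951% of genes), 1 member having an unadjusted p-value under 0.05 and DESeq2 calling 0.

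Ordered by mean level over the 15 groups, the proteases shared an upper end. *Cpa3* ran from 26.4 ± 2.76 CPM (SD, n = 3) in 67NR scaffolds through control scaffolds (25.9 ± 4.66), 4T1 scaffolds (20.8 ± 1.85) and 67NR tumors (19.9 ± 2.03) to 4T1 lungs (1.66 ± 0.260). Neighbours in this order overlapped except control and 4T1 scaffolds, 67NR tumors and 4T07 spleens, and control and 4T1 lungs. The same 4 groups led *Mcpt4*, *Cma1*, *Tpsb2* and *Tpsab1*, and 4T07 scaffolds and 4T07 and 4T1 tumors came next for *Cma1*, *Tpsb2* and *Tpsab1*. *Kit* had the 4 lung groups first, from 136 ± 4.23 CPM with 67NR to 63.3 ± 16.1 with 4T07, and 67NR tumors last (5.05 ± 1.69). *Fcer1a* and *Ms4a2* had 4T07 lungs first (4.17 ± 1.43 and 4.71 ± 1.69) and 4T07 spleens next (2.34 ± 0.120 and 3.28 ± 1.02). *Hdc* had 4T1 lungs (371 ± 122) and 4T07 lungs (244 ± 13.4) first, overlapping each other, and 67NR tumors last (9.39 ± 1.81).

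In scaffolds and tumors most pairs of proteases tracked each other across samples. Over the 12 scaffolds Pearson's r of log2(CPM + 1) was 0.912 between *Cpa3* and *Cma1*, 0.875 between *Mcpt4* and *Tpsab1* and 0.814 between the tryptases. It was lower for *Tpsb2* with *Cma1* (0.456) and with *Cpa3* (0.524), and *Cpa3* gave -0.387 with *Kit* and 0.0177 with *Hdc*. Over the 9 tumors *Cpa3* gave 0.928 with *Tpsab1* and 0.914 with *Mcpt4*, and *Cma1* gave -0.954 with *Hdc* and -0.866 with *Kit*. In lungs and spleens *Cpa3* went with the receptor chains, at 0.827 with *Fcer1a* and 0.796 with *Ms4a2* over the 12 lungs and 0.822 and 0.775 over the 12 spleens, whereas *Cma1* gave 0.0398 to 0.174 with the other 4 proteases in lungs. Some protease pairs tracked each other there too, such as *Mcpt4* and *Tpsab1* (0.759 over lungs, 0.945 over spleens) and the tryptases (0.849 and 0.830). These samples share groups and library depth, and the coefficients are given as a description. The tryptase values carry a limit, since *Tpsb2* and *Tpsab1* are neighbouring paralogs whose reads the authors' counting could split between them. The RefSeq reference used here records *Tpsab1* as a transcribed pseudogene. Beside the mean of *Cpa3*, *Mcpt4*, *Cma1* and *Tpsb2*, the genes with the highest r were *Emp3* (0.956), *Pja2* (0.955), *Dnajc4* (0.949), *Atox1* (0.944) and *Lman1* (0.943) over scaffolds, *Psmb9* (0.950), *Tubb3* (0.946), *Clu* (0.945), *Psph* (0.937) and *Mt1* (0.934) over 12 lungs, *Ifit1* (0.886), *Emp1* (0.840), *Acy1* (0.833) and *Cfl2* (0.824) over 12 spleens, and *Snai2* (0.982), *Zfp551* (0.971), *Gm47705* (0.967), *Fer1l6* (0.965) and *Gm24336* (0.950) over tumors.

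Other genes of mast cell biology, counted by list, showed where the set had company. Of the growth and recruitment ligands, *Kitl*, the ligand of *Kit*, stood at 166 to 263 CPM in 67NR tumors and at 64.6 to 83.3 with 4T07 and 45.3 to 61.9 with 4T1, lower by 1.74 and 2.17 on the log2 scale (-1.74, adjusted p-value 6.33e-06, and -2.17, 9.1e-07). In these tumors 3 of 6 ligands tested were higher and 1 lower with 4T07, and 2 were higher and 2 lower with 4T1. Of all genes, 28.9% were called in either direction with 4T07 and 20.7% with 4T1. The alarmin *Il33* was higher in both (1.57 and 1.83), and its receptor *Il1rl1* lower (-2.37 and -3.21), at 44.6 to 78.6 CPM with 67NR, 13.2 to 16.7 with 4T07 and 6.69 to 8.78 with 4T1. In 4T07 lungs *Kitl* (-1.49, 3.61e-08) and *Il33* (-2.55, 3.72e-08) were lower, and in 4T07 scaffolds *Il33* alone of 6 was lower (-1.10, 0.0071). The 4T07 lungs held spleen and pancreas genes and less *Sftpc*, as given above. A lung response and RNA of other tissues cannot be told apart there.

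Of 13 genes of signalling below the IgE receptor, none was called in 4T07 scaffolds. Of the 12 tested in lungs, 7 were higher and 1 lower with 4T07, beside 15.3% of all genes higher. The lowest adjusted p-values were those of *Lcp2* (1.90, 2.2e-08), *Btk* (1.90, 9.87e-08) and *Vav1* (1.97, 4.52e-07). With 4T1, 4 of the 12 were higher, beside 3.56% of all genes. These adaptor and kinase genes are shared with other leukocytes. In spleens 1 of 13 was lower with 4T07 (*Btk*, -1.18, 0.000286) and none was called with 4T1. Among 7 genes of eicosanoid synthesis, *Alox5ap* and *Alox5*, which make leukotrienes, were higher in lungs (1.99 and 1.62 with 4T07, 2.53 and 1.42 with 4T1) and in spleens (2.29 and 3.74 with 4T07, 2.86 and 3.76 with 4T1), whereas in tumors *Alox5ap* was lower than with 67NR (-1.45 and -1.44) and *Ptgs2*, the inducible prostaglandin synthase, higher (6.98 and 5.68). Of 8 transcription factors of the lineage, *Gata1* and *Tal1*, also erythroid regulators, were higher in 4T07 scaffolds (4.81 and 2.33), lungs (7.34 and 3.14) and spleens (1.20 and 1.17), with 2 of 8, 3 of 8 and 2 of 8 higher. In 4T07 lungs and spleens 15.3% and 8.26% of all genes were higher, and the share in scaffolds is not given here. For all 4T07 lung values of these lists, a lung response and RNA of other tissues cannot be told apart.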

How the data were processed

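RNA was taken by the authors from flash-frozen tissue in TRIzol, with 3 mice per group, and sequenced as Lexogen QuantSeq 3′ mRNA FWD libraries with a unique molecular identifier kit. The authors deposited raw counts per gene symbol, without normalization, for 45 samples in 15 groups. The submitters' processing notes name Trim Galore 0.5.0, STAR 2.6.0 and featureCounts. The genome build, the annotation, the strand setting and whether identifiers were collapsed are not given in the sources used here. Of 55487 table lines, 120 repeated a symbol and were added up, giving 55367 symbols. Samples were grouped by the tissue and cell line of the labels, which do not tie tissues to a mouse, and no 2 replicates held identical values.

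Genes with more than 10 counts over a fit were tested with the quasi-likelihood F test of edgeR 4.0.16 (R 4.3.3), TMM factors and Benjamini-Hochberg adjustment over all genes. Each tissue had its own fit over all its groups. Control tissues, tumors against scaffolds of the same line, and differences between tissues came from 1 fit of all 45 samples. A call needed an adjusted p-value under 0.10 and more than a 2-fold change in scaffolds, lungs and spleens, 0.05 and 2-fold in tumors and between tissues, and 0.10 for a difference between tissues in the response to a line. Results are log2 differences ± SE, where the SE is the absolute log2 difference divided by the square root of F. For genes of few counts this SE is approximate. Where a group had at most 3 counts per library, the ratio of pooled CPM with an exact 95% interval is given. Fitted values of such genes, in figures, in differences between tissues and with a library left out, depend on the prior count and are no bounds. Totals of 3491888 to 8175380 counts per library set the precision. With 3 samples against 3, an exact permutation test cannot go below 0.1, so none was used. The procedure was tested on simulated data.

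Every count of calls was repeated with DESeq2 1.42.0 (Wald test), with the size factors of DESeq2 in edgeR, without a filter, with a minimum of 10 counts per library, on the compared groups alone, and without each library in turn. A fit of the lungs without the 4T07 group was added after seeing the data. All 9 members are named. Other genes are named as the lowest 3 adjusted p-values among those called in a list, as markers of basophils or of cells that share *Kit*, or as the 5 most like the proteases in a tissue, of which 1 in spleens is not reported here. The members and lists were chosen with earlier results of these data known. Sequences come from RefSeq (GRCm38.p6).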

Additional observations from a re-analysis of the deposited data

Results flagged for a closer look

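A response to a tumor line that differed between tissues, by a test of the difference itself at an adjusted p-value under 0.10 (edgeR quasi-likelihood test over 45 samples), was found for 18 pairs of gene and contrast. Each value is the log2 change from control in the first tissue minus that in the second, and the contrasts of a line share the same control samples. In 4T07 mice, scaffolds minus lungs gave -3.54 for *Cpa3* (adjusted p-value 1.42e-07), -3.24 for *Mcpt4* (0.00162), -2.23 for *Tpsb2* (0.0179), -3.56 for *Tpsab1* (0.00339), -4.04 for *Fcer1a* (0.00135), -2.49 for *Ms4a2* (0.0503) and 0.84 for *Kit* (0.0673). The change in the lung was thus the higher for 6 genes and the lower for *Kit*. The fitted values of *Mcpt4*, *Tpsab1* and *Fcer1a* in contrasts with lungs rest on control lungs of at most 3 counts each, so that their size depends on the prior count and is no bound. The 4T07 lungs held spleen and pancreas genes, as given above, and their part in these differences was not tested. Without the first 4T07 lung *Mcpt4* came to -2.58, and without the third control lung *Tpsab1* came to -4.33. *Tpsb2* was not called without the first 4T07 lung (-1.52, 0.229), *Ms4a2* without any of 4 libraries (the second control scaffold, first control lung, the third 4T07 scaffold or second 4T07 lung) and *Kit* without any of 6 (the second or the third control scaffold, the third control lung, the third 4T07 scaffold, or first or second 4T07 lung).

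Scaffolds minus spleens in 4T07 mice gave -2.83 for *Cpa3* (8.19e-06), -1.26 for *Cma1* (0.0491) and -3.70 for *Hdc* (2e-06). *Cpa3* came to -3.61 without the first control spleen, and *Hdc* to -2.31 without the second control scaffold. *Cma1* was not called without any of 4 libraries (the third control scaffold, second control spleen, second 4T07 scaffold or second 4T07 spleen). Lungs minus spleens gave 2.13 for *Mcpt4* (0.0583), 2.43 for *Tpsab1* (0.0754), -0.78 for *Kit* (0.0853) and -2.89 for *Hdc* (3.27e-05). The first 3 of these rest on single libraries, since *Mcpt4* was not called without any of 4 (among them the first control spleen, 0.99, and the first 4T07 lung), *Tpsab1* without any of 6 and *Kit* without any of 8 of the 45.

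In 4T1 mice, scaffolds minus spleens gave 2.11 for *Mcpt4* (0.0551) and -3.25 for *Hdc* (2.73e-05), and lungs minus spleens gave 3.52 for *Mcpt4* (0.0115) and -2.54 for *Hdc* (0.000586). *Mcpt4* between scaffolds and spleens was not called without the second control scaffold, the first control spleen (0.97, 0.434) or the second or the third 4T1 spleen. In lungs minus spleens *Mcpt4* came to 2.39 without the first control spleen. The 4 differences of *Hdc* kept their calls with every library left out in turn, but that between scaffolds and spleens shrank to -1.86 with 4T1 without the second control scaffold, as it did with 4T07.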

How the results depend on the processing

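Of 106 calls of a member in a comparison, none reversed under an alternative, and 73 kept their call in every alternative that gave a value. Requiring at least 10 counts in every sample left 4 of 19 calls between control tissues, 3 of 6 between tumors and scaffolds, 2 of 20 in lungs, 4 of 23 in spleens and 6 of 18 differences between tissues, because that filter removes most members from the test. Leaving out 1 library gave 17 to 20 calls between control tissues, 5 to 8 between tumors and scaffolds, 15 to 21 in lungs, 8 to 12 in scaffolds (9 in the full fit), 15 to 25 in spleens, 10 to 12 in tumors (11 in the full fit) and 14 to 23 differences between tissues. The fewest in spleens came without the second 67NR spleen. DESeq2 gave 17 calls in lungs, 19 in spleens and 21 differences between tissues, with no adjusted p-value for the 3 calls of 67NR against control spleens, and no filter gave 24 differences between tissues. Fitting 9 lungs without the 4T07 group gave 5 calls in place of 4, adding *Tpsb2* in 4T1 against 67NR (-1.22, 0.0963). No paired analysis was possible because the labels give no replicate numbers that tie samples of different groups. Depth limits *Fcer1a*, *Ms4a2*, *Mcpt4* and *Tpsab1*, which lay at or near 3 counts in many libraries.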

Other observations

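The mucosal mast cell proteases *Mcpt1* and *Mcpt2*, which are not part of the connective tissue set, ran against it in tumors. *Mcpt1* was at 0 in all 3 67NR tumors, at 4.17 to 15.5 CPM with 4T07 and at 2.59 to 3.29 with 4T1 (adjusted p-values of 4.43e-05 and 0.00112 against 67NR, edgeR). *Mcpt2* was at 0 to 0.282 CPM with 67NR, at 5.36 to 8.63 with 4T07 and at 4.75 to 12.1 with 4T1 (4.85e-05 and 1.91e-05). Of the 10 other mast cell protease and granule genes listed, among them *Mcpt1* and *Mcpt2* themselves, 8 were tested in tumors. Of these 8, 4 were higher with 4T07 and 5 with 4T1 and none was lower, where 28.9% and 20.7% of all genes were called in either direction. *Srgn*, the proteoglycan core protein that many leukocytes share, was higher by 2.29 and 2.12 on the log2 scale. Reads of these related protease genes could be split by the authors' counting. In scaffolds *Mcpt1* was at most 0.856 CPM and *Mcpt2* at most 0.370 in any library.

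Among receptors of connective tissue mast cells, *Mrgprb1* was at 0.979 to 4.43 CPM over the 12 scaffolds and at most 0.324 in any lung, 1.55 in any spleen and 1.63 in any tumor. Its 4T07 scaffolds (0.979 to 3.57 CPM) overlapped the other scaffolds (1.68 to 4.43). *Mrgprb2* was at most 0.963 CPM in any scaffold. The neutrophil and mast cell protease gene *Ctsg* was higher in 4T07 scaffolds (4.76, adjusted p-value 0.00175), lungs (10.13, 1.97e-13) and spleens (6.54, 7.06e-08), in each with 7 of 7 immature neutrophil genes, a list that holds *Ctsg* itself. The 4T07 lungs held spleen and pancreas genes, and their part in the lung value was not tested.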
